A study of Mus musculus with 4 samples.

Results

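Retnlb, Ang4 and Itln1 encode 3 antimicrobial proteins that goblet cells release into the gut lumen. All 3 symbols were found among the 46095 of the count table, and all 3 were among the 17169 genes that passed the filter on low counts. They were selected on their counts in these 4 libraries, in which the 2 Esr2-KO libraries disagree, so their levels and fold changes are given as a description and carry no test. Total RNA of the colon of 21-day-old C57BL/6 mice was sequenced, with 2 libraries of wild-type (WT) and 2 of Esr2-/- mice (Esr2-KO), in which the gene of estrogen receptor β is disrupted. The design text speaks of triplicates, and 2 libraries per genotype were analysed here. No treatment is named for either group. The labels give neither how the Esr2 allele was made, nor the segment of colon taken, nor the hour of collection, nor whether the libraries of 1 genotype are separate animals.

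Goblet cells make the mucus of the colon and, with it, proteins that keep bacteria away from the epithelium. Retnlb encodes resistin-like molecule β, a small cysteine-rich protein that damages bacterial membranes. Ang4 encodes angiogenin 4, a bactericidal member of the ribonuclease A family made by goblet and Paneth cells, and Itln1 encodes intelectin 1, a lectin that binds sugars found on microbial surfaces. Transcription of these genes is known to respond to the resident bacteria and, during worm infection, to interleukins 4 and 13 acting through STAT6. Postnatal day 21 falls at weaning, when the gut bacteria and the secretory cells of the epithelium change.

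The loci lie on separate chromosomes, so the genes share no neighbourhood. In GRCm38, Retnlb lies on chromosome 16 from 48816856 to 48818892 on the plus strand, Ang4 on chromosome 14 from 51763878 to 51773590 on the minus strand, and Itln1 on chromosome 1 from 171518122 to 171535294 on the minus strand. No other annotated gene overlaps any of these spans. Because each gene has relatives of similar sequence, the share of 50-base stretches of each transcript that also occurs in transcripts of other genes was counted. It was 0% of 647 stretches for Retnlb, 4.70% of 660 for Ang4, all in Ang2 or Ang5, and 1.01% of 1092 for Itln1, in Gm9765.

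For Retnlb and Ang4, the closest stretches to the nearest annotated relative in the count table are printed to show how far reads could be mixed up. For Retnlb that relative was Retnlg, which encodes resistin-like γ, with 80.6% identity over the coding sequence. In the 60 coding bases where they are most alike (bases 198 to 257 of Retnlb) they differ at 3 positions, set in capitals, and the sequences are those of GENCODE M21.
Retnlb: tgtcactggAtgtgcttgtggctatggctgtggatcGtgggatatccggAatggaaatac
Retnlg: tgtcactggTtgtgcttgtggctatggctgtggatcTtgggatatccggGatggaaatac
For Ang4 the nearest relative was Ang5, with 88.7% identity and an identical run of 79 coding bases, of which the 60 from base 351 to base 410 of Ang4 are shown.
Ang4 and Ang5: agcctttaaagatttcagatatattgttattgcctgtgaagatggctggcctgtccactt
Ang2, Ang5 and Ang6 had 0 counts in all 4 libraries. Exact zeros of near-identical genes can come from how reads were assigned, so they do not bound the expression of those copies. Of the 2 other intelectin symbols looked for, 0 were found in the table used here.

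Promoter sequence of RefSeq (GRCm38.p6) was available for Ang4 and Itln1, and the 250 bases before each start are shown because both genes were low in the same library. The motifs searched on both strands were TTTATG of CDX factors, CAAAGTCCA of HNF4, AGATAA of GATA factors, TTCNNNNGAA of STAT6, GGTCANNNTGACC and AGGTCA of estrogen receptors, which share GGTCA, and CACCC of KLF factors. Capitals mark matches.
Ang4, chr14:51773591-51773840, minus strand: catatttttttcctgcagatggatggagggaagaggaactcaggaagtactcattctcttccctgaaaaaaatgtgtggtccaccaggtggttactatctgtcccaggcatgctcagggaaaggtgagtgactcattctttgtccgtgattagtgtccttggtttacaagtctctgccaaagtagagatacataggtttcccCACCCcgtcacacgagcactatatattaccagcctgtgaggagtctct
Itln1, chr1:171535295-171535544, minus strand: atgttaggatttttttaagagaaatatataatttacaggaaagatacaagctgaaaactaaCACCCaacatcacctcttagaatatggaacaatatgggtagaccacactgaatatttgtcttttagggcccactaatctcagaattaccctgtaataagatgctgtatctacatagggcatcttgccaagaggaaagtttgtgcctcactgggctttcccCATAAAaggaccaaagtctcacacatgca
Each window held 1 match to the KLF motif, which 52.0% of 32851 promoter windows of the same length held. The Itln1 window also held the CDX motif, on the minus strand at base -29 from the start, a motif found in 10.8% of all windows. HNF4 (0.384% of all windows), GATA (9.99%), STAT6 (5.85%), the longer estrogen receptor motif (0.0639%) and AGGTCA (14.0%) had no match in either.

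The 4 libraries held 30826790 to 33709643 counts, and the chi-square per degree of freedom between the libraries of a genotype was 39.7 for WT and 478 for Esr2-KO, so no pair was a repeat of 1 library. The targeted gene Esr2 had 21, 13, 6 and 16 counts in WT 1, WT 2, Esr2-KO 1 and Esr2-KO 2, too few to check the genotype labels, and the labels do not say which part of it is deleted. Esr2-KO 2 stood apart from the other libraries. Genes of an exocrine pancreas list took 21.6% of its counts and 0.258 to 0.408% of those of the other libraries. Klk1 gave 70090 of 87026 counts of that list in WT 1, 78862 of 97148 in WT 2 and 69885 of 134556 in Esr2-KO 1. In Esr2-KO 2 it gave 130646 of 6646175. Results for Esr2-KO 2 are therefore given separately throughout. Levels are counts per 1000000 counts of the library (CPM), its total scaled by the trimmed mean of M values (TMM), which gave Esr2-KO 2 a factor of 0.856 against 1.04 to 1.08 in the others.

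Ang4 mRNA was nearly absent from 1 of the 2 Esr2-KO libraries and at the WT level in the other. Its counts were 64026 in WT 1, 94539 in WT 2, 81203 in Esr2-KO 1 and only 128 in Esr2-KO 2 (exact 95% Poisson interval 107 to 152). On the CPM scale these were 1762, 2716, 2372 and 4.85. Esr2-KO 1 thus lay between the WT libraries, while the level of Esr2-KO 2 was 363-fold below the lowest of the other libraries and 489-fold below Esr2-KO 1. In the bulk RNA of these libraries, fewer cells that make a transcript and less transcript per cell cannot be told apart.

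Retnlb showed the same division of the libraries. In the same order of libraries its counts were 22394, 46016, 38051 and 60 (interval of the last 45.8 to 77.2), or 616, 1322, 1112 and 2.27 CPM. The level of Esr2-KO 2 was 271-fold below that of WT 1, the next lowest library, and 489-fold below Esr2-KO 1, as for Ang4. Esr2-KO 1 again lay between the WT libraries, which differed from each other 2.15-fold for Retnlb and 1.54-fold for Ang4.

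Itln1 was expressed at a far lower level and varied more between the WT libraries. Its counts were 476, 1856, 1685 and 20 (interval of the last 12.2 to 30.9), or 13.1, 53.3, 49.2 and 0.758 CPM. Esr2-KO 2 was the lowest library here too, 17.3-fold below WT 1 and 64.9-fold below Esr2-KO 1. The WT libraries themselves differed 4.07-fold, a larger gap than that of all but 1.35% of tested genes. The intervals cover counting error only.

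**Figure D1:**
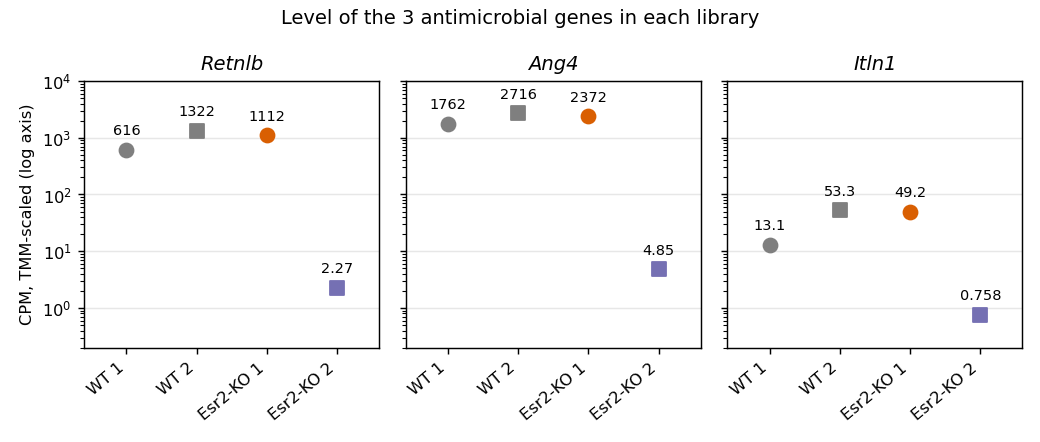
CPM of Retnlb, Ang4 and Itln1 (log axis) in each of the 4 libraries, 1 point per library with its value. For each gene WT 1, WT 2 and Esr2-KO 1 lie above Esr2-KO 2, by 271-fold or more for Retnlb, 363-fold or more for Ang4 and 17.3-fold or more for Itln1.

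Per kilobase of exon, Ang4 was the most abundant of the 3 genes in every library and Itln1 the least. Levels per kilobase were 2485, 3831, 3346 and 6.84 CPM for Ang4 (WT 1, WT 2, Esr2-KO 1 and Esr2-KO 2). Those of Retnlb were 885, 1899, 1598 and 3.27, and those of Itln1 were 11.5, 46.7, 43.2 and 0.664. By count alone, Ang4 ranked 28th, 18th and 17th among all genes in WT 1, WT 2 and Esr2-KO 1, and 11666th in Esr2-KO 2. Retnlb went from ranks of 140, 46 and 63 to 13093.

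In the library where the 2 more abundant genes were nearly absent, their ratio, resting on 60 and 128 counts, lay within the range of the other libraries. Retnlb counts were 0.350 of Ang4 counts in WT 1, 0.487 in WT 2, 0.469 in Esr2-KO 1 and 0.469 in Esr2-KO 2. Itln1 varied more against Ang4, whose counts were 135, 50.9 and 48.2 times those of Itln1 in WT 1, WT 2 and Esr2-KO 1, and 6.40 times in Esr2-KO 2. What was left in Esr2-KO 2 amounted to 0.158% of the Esr2-KO 1 count for both Ang4 and Retnlb and to 1.19% for Itln1. For comparison, 21 genes of the pancreas list with at least 10000 counts in Esr2-KO 2 had in Esr2-KO 1 a median of 0.257% of that count (range 0.211 to 53.5%), and in WT 1 and WT 2 medians of 0.0361% and 0.0125%. Whether traces of RNA or reads from one library entered another was not tested.

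Among all genes, Ang4 and Retnlb had the most negative differences between Esr2-KO 2 and Esr2-KO 1, as follows from how they were selected. On the log2 CPM scale (prior count 2) the difference was -8.92 for Ang4, the first of 17169 tested genes in that order, -8.90 for Retnlb, the second, and -5.91 for Itln1, which ranked 9th. The median over all tested genes was -0.02. Of 124 genes with at least 20000 counts in each of WT 1, WT 2 and Esr2-KO 1, Ang4 and Retnlb retained the smallest share in Esr2-KO 2. The next were Mptx1, a pentraxin gene of the gut epithelium, at 15.5% of its Esr2-KO 1 count, Jchain at 18.1% and Spink4 at 22.6%, and the median of the 124 genes was 75.3%.

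**Figure D2:**
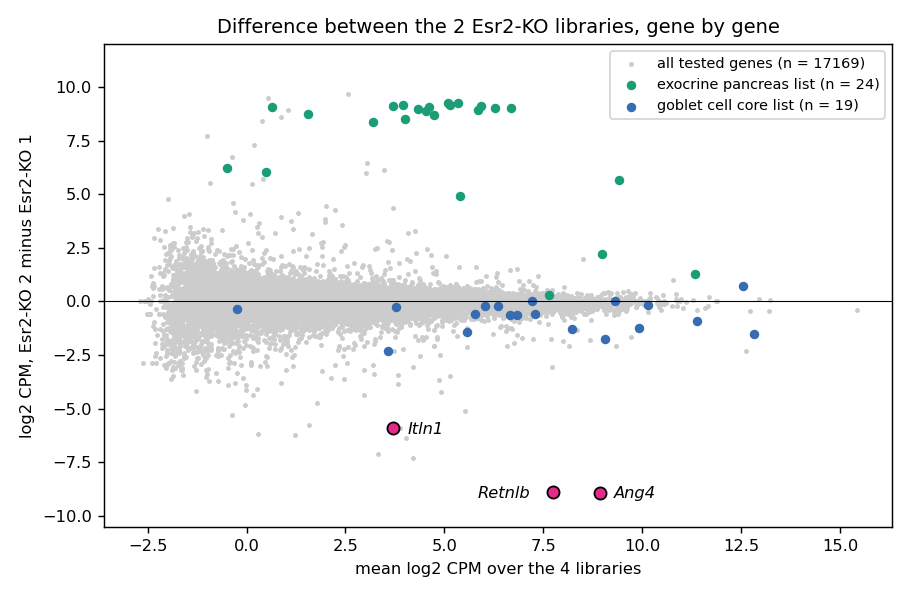
Difference in log2 CPM between Esr2-KO 2 and Esr2-KO 1 (vertical axis) against the mean log2 CPM over the 4 libraries (horizontal axis), 1 point per tested gene. Ang4 and Retnlb lie below all other genes at -8.92 and -8.90, the pancreas list has a median of 8.91, and the goblet cell core genes lie between -2.29 and 0.72.

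Compared as genotypes, the 3 genes were lower in Esr2-KO on average, with a standard deviation (SD) above the mean in Esr2-KO and below it in WT. Ang4 had a mean of 1190 ± 1670 CPM in Esr2-KO and 2240 ± 675 in WT (SD, n = 2 per group). Retnlb had 557 ± 784 against 969 ± 499, and Itln1 25.0 ± 34.3 against 33.2 ± 28.4. The log2 fold change of Esr2-KO over WT in the edgeR fit over all genes was -0.91 ± 1.76 (SE) for Ang4, -0.80 ± 1.76 for Retnlb and -0.40 ± 1.33 for Itln1. These values describe neither Esr2-KO library. Without Esr2-KO 2 they became 0.09 ± 0.31, 0.20 ± 0.38 and 0.57 ± 0.57, and without Esr2-KO 1 they became -8.85 ± 0.53, -8.73 ± 0.61 and -5.44 ± 0.85. The lone library of a group is then taken to vary like the other group. Itln1 also turned to 0.95 ± 1.65 without WT 2. Limma-voom, which averages logarithms, gave -4.31, -3.96 and -1.79 for Ang4, Retnlb and Itln1 with all libraries. For each of the 3 genes the groups overlapped, while both Esr2-KO libraries lay on 1 side of both WT libraries for 54.7% of tested genes.

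Most other goblet cell products lay nearer to the WT level in Esr2-KO 2, and B3gnt6 was an exception. Muc2, the gel-forming mucin of the colon, stood at 70627, 53872, 27968 and 9134 counts in WT 1, WT 2, Esr2-KO 1 and Esr2-KO 2, that is at -1.09 and -2.32 log2 CPM from the WT mean in Esr2-KO 1 and Esr2-KO 2. The mucus proteins Clca1 (0.01 and -1.51) and Fcgbp (-0.05 and -1.32), the disulfide isomerase Agr2 (-0.92 and -1.82) and Spink4 (0.39 and -1.38) were also lower in the second library. Tff3, the trefoil peptide of goblet cells, was at 0.28 and 0.12, and the lectin Zg16 at -0.05 and 0.67. Over the 19 tested genes of the core list of 20, the median position was -0.10 for the first Esr2-KO library and -0.88 for the second. Atoh1 and Spdef, transcription factor genes of the secretory lineage, were at -0.56 and -0.88 in Esr2-KO 2. In the edgeR test 1 of the 19 genes passed an adjusted p of 0.05, the mucin glycosyltransferase B3gnt6. It was at -3.82 log2 from the WT mean in Esr2-KO 1 and -6.11 in Esr2-KO 2, further than Itln1 at -5.02 in the latter. Its log2 fold change of Esr2-KO over WT was -4.56 ± 0.62 (edgeR adjusted p = 0.0257, and 0.0566 without WT 1). DESeq2 called 4 of the 19 lower, and 1693 of the 16611 genes it tested. In edgeR with all libraries 2.69% of all tested genes passed, 1.30% higher and 1.39% lower in Esr2-KO. The median log2 fold change of the core list in edgeR was -0.092 without Esr2-KO 2 and -0.993 without Esr2-KO 1.

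**Figure D3:**
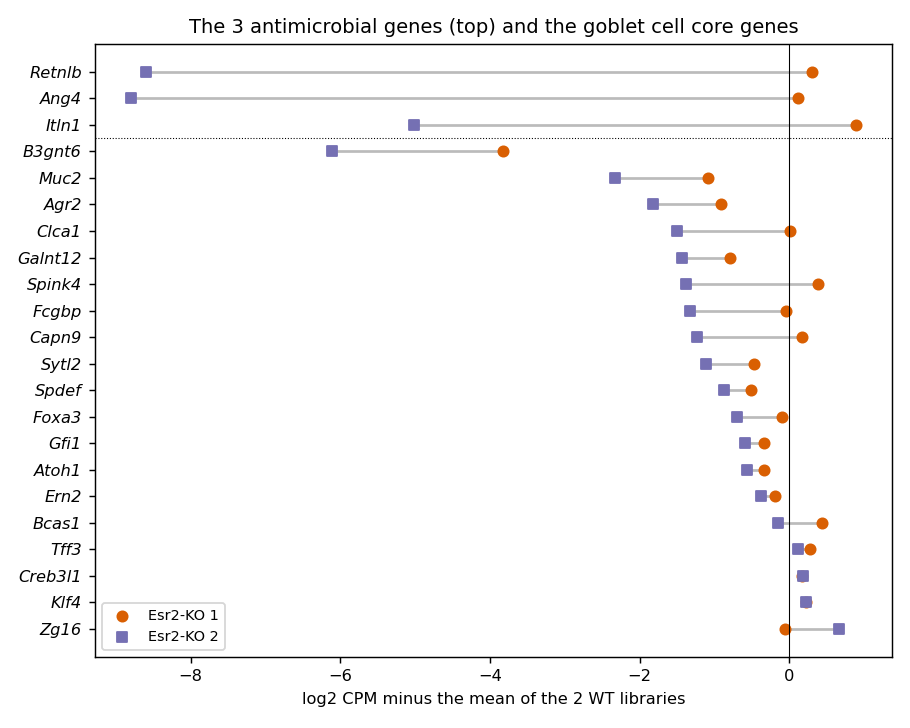
Log2 CPM of Esr2-KO 1 (circles) and Esr2-KO 2 (squares) minus the mean of the 2 WT libraries, for Retnlb, Ang4 and Itln1 above the dotted line and 19 goblet cell core genes below it. The 3 antimicrobial genes have the widest gaps between the libraries, while B3gnt6 is low in both.

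Ratios within a library, which do not depend on its total, left Esr2-KO 2 the lowest library for all 3 genes with each of 4 denominators, while the order of the other libraries varied. Per 1000 counts summed over the goblet cell core list, Ang4 had 68.6, 116, 109 and 0.298 counts (WT 1, WT 2, Esr2-KO 1, Esr2-KO 2). Retnlb had 24.0, 56.6, 51.1 and 0.140, and Itln1 0.510, 2.28, 2.26 and 0.0466. Zg16 made up 22.2%, 21.7% and 23.8% of that sum in WT 1, WT 2 and Esr2-KO 1 but 52.5% in Esr2-KO 2. Zg16 is also known from the zymogen granules of the pancreas, and the part of pancreatic RNA in this share was not tested. Without Zg16, Ang4 had 88.2, 149, 143 and 0.629 counts per 1000. Per 1000 Muc2 counts the values of Ang4 were 907, 1755, 2903 and 14.0, so that against Muc2 Esr2-KO 1 was above both WT libraries. Per 1000 counts of 10 general epithelial genes such as Epcam and Krt8 they were 170, 289, 223 and 0.456. That epithelial list had a summed level of 10390, 9405, 10640 and 10630 CPM in the 4 libraries.

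**Figure D4:**
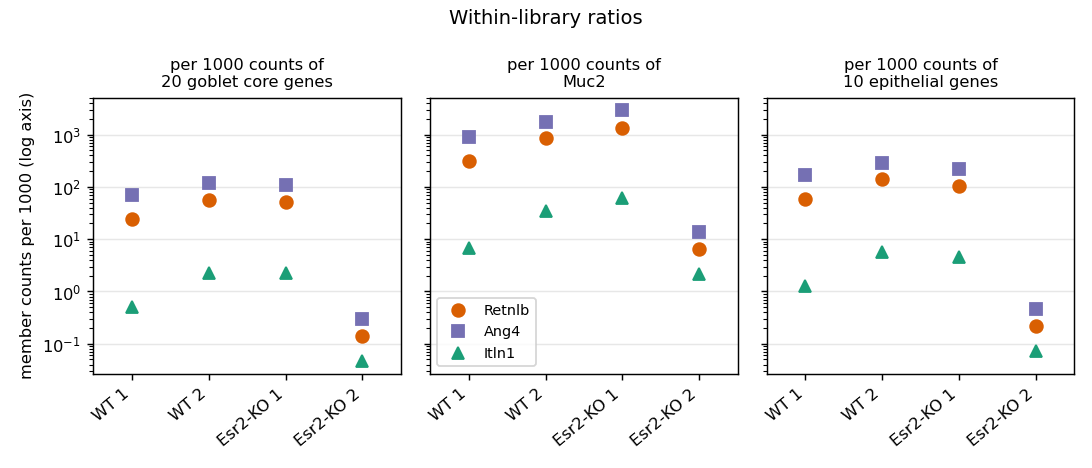
Counts of Retnlb, Ang4 and Itln1 per 1000 counts of the goblet cell core list, of Muc2 and of the general epithelium list (log axis) in each library. Esr2-KO 2 is lowest for all 3 genes with each denominator.

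Relatives of Retnlb and Ang4 were read one by one, and their differences from those genes were not tested. In the resistin-like family, Retnla, made by macrophages and epithelium, had 832, 1204, 726 and 349 counts (WT 1, WT 2, Esr2-KO 1, Esr2-KO 2). Retn, the adipocyte hormone resistin, had 195, 360, 329 and 57. Retnlg had 105, 90, 68 and 1, with the most negative difference of these 3 between Esr2-KO 2 and Esr2-KO 1 (-4.38 log2). In the edgeR test of Esr2-KO against WT, 0 of the 3 passed (adjusted p = 0.207, 0.763 and 0.494), 1 had an unadjusted p under 0.05 (20.6% of all tested genes did), and DESeq2 and limma-voom also called 0. In Esr2-KO 1, Retnla, Retn and Retnlg were at -0.407, 0.365 and -0.448 log2 CPM from the WT mean. In Esr2-KO 2 they were at -1.085, -1.758 and -4.824.

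In the ribonuclease A family 6 genes other than Ang4 were tested, and 0 rose and 2 fell in edgeR, with a median of -0.53. Of all tested genes 1.3% rose and 1.39% fell. Ang, the broadly expressed angiogenin, had 1107, 1361, 688 and 626 counts and did not pass (-0.67 ± 0.17, edgeR adjusted p = 0.0985). Rnase4, which shares its locus with Ang, was lower in both Esr2-KO libraries, with 292 and 323 CPM in WT and 166 and 147 in Esr2-KO (-0.97 ± 0.14, edgeR adjusted p = 0.0265, and 0.0592 without WT 2). Rnase2b, with 95, 94, 10 and 4 counts, was lower as well (-3.53 ± 0.50, edgeR adjusted p = 0.0265, 0.104 without WT 1 and 0.0772 without WT 2). Rnase1, the pancreatic ribonuclease, is itself a gene of the pancreas list and had 62, 13, 389 and 173102 counts. Rnase6 (150, 236, 195 and 68 counts) and Ear2 (37, 64, 55 and 20) overlapped between the groups. Rnase2a, Rnase10, Rnase12 and Ear1 had at most 15 counts in any library and were not tested, and Ear6 and Ear10 had 0.

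Genes next to the 3 loci, looked up after the values of the 3 were seen, gave a mixed picture. Within 200 kb of Itln1, 6 tested protein-coding genes had Esr2-KO 2 minus Esr2-KO 1 differences of -0.96 to 0.10 log2, and among them the nearest, Alyref2, had 188, 325, 279 and 190 counts. Around Ang4, Mettl17 and Ndrg2 were at 0.40 and 0.14 (Ndrg2 was higher in Esr2-KO in edgeR's test, 1.03 ± 0.12, adjusted p = 0.0204), and AY358078, with 16, 18, 9 and 0 counts, was too low to place. Around Retnlb, Dzip3 and Retnla were at -0.30 and -0.68, while Retnlg and Trat1 were low. Trat1, a T cell adaptor gene 44.8 kb away, had 41, 69, 79 and 0 counts.

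The genes with the most similar profiles over the 4 libraries were sought among 11492 genes, by the root mean square distance of log2 CPM centred on each gene's mean. For Retnlb the nearest was Ang4 and the reverse, at a distance of 0.20, and the next distances were 1.52 or more from Retnlb and 1.41 or more from Ang4. Sptssb, a subunit of sphingolipid synthesis, and Apol10a came next to Ang4. Unlike it they were already low in Esr2-KO 1, with 7344, 6903, 728 and 2 counts for Sptssb and 10733, 11134, 1360 and 29 for Apol10a. Plet1 (5774, 5717, 820 and 32) completed the list for Ang4, and Igkv8-21 that of Retnlb. Itln1 was closest to Igkv8-21, an antibody light chain segment (distance 0.09, 485, 2088, 2008 and 24 counts), and to the phospholipase gene Pla2g4c (0.33, 433, 2312, 2921 and 26). Igkv4-68 and Igkv13-85 were at 1.15 and 1.21. With 4 libraries, of which 1 stands apart, such distances are a description.

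The upstream signals named above were measured at very different depths. Il13 had 2, 4, 5 and 0 counts and Il4 1, 0, 0 and 0, so that a difference in either was not detectable. The receptor genes Il13ra1 (164, 135, 147 and 99.1 CPM) and Il4ra (61.6, 50.2, 42.3 and 31.0 CPM) and the signal transducer Stat6 (87.9, 96.7, 92.7 and 84.6 CPM) were present in all libraries, and Il13ra2 had 11, 31, 42 and 12 counts. Of 17 tested genes of the type 2 axis 0 passed in edgeR and limma-voom and 2 in DESeq2, which called 1693 of the 16611 genes it tested. In edgeR 2 had an unadjusted p under 0.05, or 11.8% of the list beside 20.6% of all tested genes. The median was -0.22 against 0.00 for all tested genes, and in Esr2-KO 2 it was -0.52. The smallest p belonged to Arg1 (-1.71 ± 0.48, edgeR adjusted p = 0.117).

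Of 8 tested genes of the IL-22 and IL-17 axis 0 passed in edgeR and limma-voom (median 0.25). DESeq2 called 2, and 1693 of the 16611 genes it tested. In edgeR 4 had an unadjusted p under 0.05, or 50% of the list beside 20.6% of all tested genes. Stat3 (0.40 ± 0.11) and Socs3 (-0.77 ± 0.23) had the smallest p, with edgeR adjusted p values of 0.117 and 0.126, and Il22 had 0 counts in all libraries. Of 10 genes around the NLRP6 inflammasome Il18, the interleukin it releases, rose (1.08 ± 0.16, edgeR adjusted p = 0.0300, and 0.0700 without WT 1). It was the 1 gene of that list past the threshold, where DESeq2 called 2 higher and 2 lower. In edgeR 7 had an unadjusted p under 0.05, or 70% of the list beside 20.6% of all tested genes. Il18 mRNA was at 1.12 from the WT mean in Esr2-KO 1 and 1.07 in Esr2-KO 2. Release of the protein was not measured, and a link to the levels of Ang4 and Retnlb was not tested. Nlrp6, the sensor, was at -0.20 and 0.07.

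Among 20 tested other epithelial antimicrobial genes, 2 rose and 2 fell in edgeR's test, with a median of 0.00. Of all tested genes 1.3% rose and 1.39% fell. The list counts depended on the tool and changed when a library was left out, as did that of all genes. DESeq2 called 3 higher and 6 lower of 18, and 1693 of the 16611 genes it tested. Wfdc2, a protease inhibitor, was higher (1.13 ± 0.14, adjusted p = 0.0210, and 0.0668 without WT 1). So was the serum amyloid gene Saa1 (1.55 ± 0.24, edgeR adjusted p = 0.0322, and 0.0866 without WT 1). Saa3 and Duoxa2 were lower, and neither passed without WT 1 or without WT 2. The lectins Reg3b and Reg3g were low in both Esr2-KO libraries, at 890, 5119, 2 and 273 counts and 288, 1260, 14 and 39 counts, with edgeR adjusted p values of 0.183 and 0.0501. Lypd8, which holds flagellated bacteria off the epithelium, was at 0.45 and 0.58 from the WT mean (edgeR adjusted p = 0.300). In Esr2-KO 2 the median of these 20 genes was -0.31.

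Markers of other cells were read in the same libraries. Of 13 Paneth cell genes, the 10 α-defensin genes had 0 counts in all 4 libraries. In the same table the trypsinogen genes Prss1, Prss2, Try4 and Try10 also had 0 counts in Esr2-KO 2, where the related Try5 had 136162, so exact zeros in families of similar sequence do not bound expression. The list's summed level was 8.01 and 12.2 CPM in WT and 10.6 and 8.95 in Esr2-KO, with Lyz1 at 239, 320, 332 and 232 counts and Mmp7 at 48, 98, 15 and 4. Of the list's 2 tested genes 0 passed in edgeR and limma-voom and 1 in DESeq2 (1 at an unadjusted p under 0.05). Tuft cell genes summed to 118 and 137 CPM in WT and 83.4 and 63.4 in Esr2-KO. The small intestinal enterocyte list summed to 1147, 1291, 590 and 378 CPM in the 4 libraries. Most of this sum was Fabp2 (716, 826, 166 and 19.9 CPM) and Mgam (320, 295, 248 and 169 CPM), named after their values were seen, and without them it was 111, 170, 176 and 190 CPM. Slc5a1 and Rbp2, the genes of smallest p, were at 0.75 and 0.73 (edgeR adjusted p = 0.0579 and 0.0607). Of the 7 tested genes of this list 4 had a negative log2 fold change. Among these were Fabp1, with 17, 40, 0 and 0 counts, and Alpi, with 749, 1141, 136 and 7. In edgeR 0 of 11 tuft and 0 of 7 small intestinal genes passed. At an unadjusted p under 0.05 were 7 and 7, or 63.6% and 100% of these lists against 20.6% of all tested genes. DESeq2 called 4 of 11 tuft genes lower, and of 8 small intestinal genes 2 higher and 3 lower. It called 1693 of the 16611 genes it tested. Limma-voom called 0 tuft genes, 1 small intestinal gene higher and 1 lower, and 606 of 17169 genes. Leukocyte genes summed to 1387, 1149, 942 and 318 CPM, largely Jchain of plasma cells (45309, 34400, 26318 and 4760 counts), and smooth muscle genes to 6257, 4829, 4936 and 6229 CPM. In edgeR, DESeq2 and limma-voom 0 of 10 leukocyte and 0 of 6 smooth muscle genes passed, with 3 and 0 at an unadjusted p under 0.05, the former 30.0% of its list beside 20.6% overall. Of 24 tested pancreas genes 1 passed, Spink1, a trypsin inhibitor also present in WT (119.5 and 138 against 285 and 349 CPM, edgeR adjusted p = 0.0204, and 0.0604 without WT 1). Over the 24 pancreas genes the median position from the WT mean was 3.49 log2 CPM in Esr2-KO 1 and 12.4 in Esr2-KO 2. DESeq2 with all libraries called 25 of 28 pancreas genes higher, beside 1693 of the 16611 genes it tested. The part of these cell types in the levels of Retnlb, Ang4 and Itln1 was not tested.

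Some transcription factor genes that mark position along the gut differed between the groups. Of 22 tested, 2 rose and 5 fell in edgeR's test, where 1.3% of all tested genes rose and 1.39% fell. DESeq2 called 4 higher and 6 lower of 22, and 1693 of the 16611 genes it tested. These counts changed when a library was left out, and so did that of all genes. Hoxb13 had 2644, 5327, 21058 and 17809 counts and Hoxd12 8, 18, 327 and 390, while Hoxb8 had 121, 420, 6 and 4 (limma-voom adjusted p = 0.138) and Hoxa11 782, 675, 320 and 202 (edgeR adjusted p = 0.0289, 0.125 without WT 1 and 0.0667 without WT 2). Gata4, a factor of the proximal gut named after its values were seen, had 62, 54, 0 and 251 counts, so the Esr2-KO libraries differed in it by 7.30 log2. The library with 251 counts is that with 21.6% of its counts in pancreas genes, and the part of pancreatic RNA in them was not tested. Cdx2, named here for the CDX motif after its values were seen, had 7219, 5724, 2083 and 735 counts (-2.03 ± 0.34, edgeR adjusted p = 0.0373, 0.105 without WT 1 and 0.0565 without WT 2). Cdx1, the other CDX gene of the list and also named after its values were seen, went the other way. It had 304, 287, 379 and 405 CPM (0.41 ± 0.14, edgeR adjusted p = 0.176). A link of either gene to the level of Itln1 was not tested. Genotype and position along the colon cannot be told apart in this design.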

How the data were processed

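Trizol-extracted RNA was freed of ribosomal RNA and sequenced from directional libraries, per the labels' protocols. HISAT2 and mm10 are named in the submitters' processing notes. The authors deposited raw counts per gene symbol. Counting program, annotation and strand setting were not given in the sources used here. Reads of near-identical genes may have been dropped or split. Of 46095 symbols, 20580 had no count. The members and gene lists were chosen with earlier results of these data known. filterByExpr (minimum count 10, total 15) kept 17169 genes, scaled by TMM and tested with edgeR 4.0.16 (quasi-likelihood, two-sided, Benjamini-Hochberg adjusted p under 0.05, 2 residual degrees of freedom). P-values measure the spread between these libraries, which may be technical. Lists exclude the 3 members.

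Genes were named by rule: the 3 members, their families, 7 goblet genes, up to 4 genes past the threshold per list or else up to 2 of smallest p, and 5 nearest profiles, of which 1 is not reported here. Esr2, Cdx1, Cdx2, Klk1, Mptx1, Jchain, Reg3b, Reg3g, Lypd8, Atoh1, Spdef and B3gnt6 were added after values were seen. So were Fabp1, Fabp2, Alpi, Mgam, Gata4, the trypsinogen genes and the neighbours. Lengths, positions and transcripts came from GENCODE M21. Alternatives were other scalings, filters and tests (DESeq2 1.42.0, limma 3.58.1), a replicate block, and each library left out. The procedure was tested on simulated data.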

Additional observations from a re-analysis of the deposited data

How the results depend on the processing

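The number of genes past the threshold was 462. It was 699 with library totals, 1916 with no filter and 1693 with DESeq2, ranged from 165 (without WT 1) to 1804 (without Esr2-KO 1) when 1 library was left out, and stayed within 1.5 times with the other settings. The goblet cell core list had 1 gene past the threshold, and 2 with library totals, limma-voom, the replicate block or the pancreas genes left out, 4 with DESeq2 and 6 with no filter. With 1 library left out it had 0 (without WT 1) to 9 (without Esr2-KO 1), and its median log2 fold change ran from -0.99 to -0.092. Log2 fold changes with 1 library left out ran from -8.85 to 0.089 for Ang4, from -8.73 to 0.20 for Retnlb and from -5.44 to 0.95 for Itln1. With the replicate number as a block they were -4.31, -4.05 and -1.53, and 490 genes passed. The labels do not say whether the numbers pair the libraries. Same-numbered deviations from the group means correlated at -0.06 over 17169 genes. With n = 2 per group and Esr2-KO 2 standing apart, this value cannot decide it. Saa1 did not pass with library totals (adjusted p = 0.0623), nor Saa3 with limma-voom (0.0666), and neither passed with the replicate block (0.067 and 0.0576). Scaled to the goblet cell core, Esr2-KO 2 lay at -8.23 log2 from WT for Ang4, and at -6.49 per Muc2, -8.92 per general epithelium and -7.51 without Zg16, a setting added after the data were seen. Per Muc2, Retnlb was at -6.31 against -8.04 and Itln1 at -2.80 against -4.53. The levels of Esr2-KO 2 rest on 20 to 128 counts per gene, and n = 2 limits every comparison.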
